A study of Mus musculus with 8 samples.

Results

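H3K27me3 is trimethylation of lysine 27 of histone H3. The wide domains described here are broad autosomal stretches of the mouse genome. Each carried this mark over at least 50% of its length in every liver of the study. They were chosen from the measured islands, the stretches a peak caller marked as enriched. Overlapping or touching islands of 6 liver libraries were merged into 14560 union regions, and an autosomal region was kept when it was at least 60 kb wide and islands covered 50% or more of it in each of the 6 lists. This gave 420 wide domains, 2.88% of the union regions. Width and cover in these lists are therefore descriptions of how the domains were chosen. They were not tested against other regions, and cover was compared only between treatments, which the choice did not use.

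The mice were 7-week-old males of the outbred CD-1 stock, and livers were taken 3 h after injection. The vehicle group received 1% DMSO in corn oil, and the treated group received TCPOBOP at 3 mg/kg, an agonist of the nuclear receptor CAR that induces drug-metabolising enzymes in hepatocytes. ChIP-seq fragments of 600 to 1100 bp, digested to 500 bp, gave 3 vehicle and 3 TCPOBOP libraries, each from the liver of a separate animal. Fragments over 1100 bp of the first ChIP sample of each group, digested to 200 bp, gave 2 further libraries, which the choice of domains did not use.

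H3K27me3 is written by Polycomb repressive complex 2, whose catalytic subunit is usually EZH2, and it is read by Polycomb repressive complex 1. In differentiated tissue it typically lies in broad blankets over genes of other lineages, such as the homeobox genes that pattern the embryo, and these genes are usually silent. Many of their promoters are CpG islands, short stretches rich in the dinucleotide CG, where Polycomb complexes are recruited in mammals.

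Promoters of listed genes inside and outside the wide domains are printed to show this property, with each CG in capitals. Each is the 250 bases before the first start site that RefSeq lists on GRCm38.p6, read 5′ to 3′ on the gene's strand. Sox1, Six2 and Hoxa13 lay in wide domains described below and are rich in CG, Pdx1 and Pax2 lay in others and are poorer, and Alb and Fga, which encode albumin and fibrinogen alpha chain of hepatocytes, lay in none.
Sox1: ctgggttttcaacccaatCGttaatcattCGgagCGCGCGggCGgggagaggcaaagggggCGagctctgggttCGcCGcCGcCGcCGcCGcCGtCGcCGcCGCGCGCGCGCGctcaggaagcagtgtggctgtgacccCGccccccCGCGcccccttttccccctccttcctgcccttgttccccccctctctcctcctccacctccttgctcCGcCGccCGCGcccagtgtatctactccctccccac
Hoxa13: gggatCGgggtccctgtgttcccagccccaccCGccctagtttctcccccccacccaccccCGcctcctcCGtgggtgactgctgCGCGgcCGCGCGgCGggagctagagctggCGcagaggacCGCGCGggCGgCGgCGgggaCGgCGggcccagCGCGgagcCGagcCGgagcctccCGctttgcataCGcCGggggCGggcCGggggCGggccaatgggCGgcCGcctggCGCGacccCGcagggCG
Six2: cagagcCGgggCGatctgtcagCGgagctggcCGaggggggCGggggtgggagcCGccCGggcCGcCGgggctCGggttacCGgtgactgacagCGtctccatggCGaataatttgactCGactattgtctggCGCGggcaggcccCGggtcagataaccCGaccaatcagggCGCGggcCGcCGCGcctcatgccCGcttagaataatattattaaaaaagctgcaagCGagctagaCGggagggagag
Pdx1: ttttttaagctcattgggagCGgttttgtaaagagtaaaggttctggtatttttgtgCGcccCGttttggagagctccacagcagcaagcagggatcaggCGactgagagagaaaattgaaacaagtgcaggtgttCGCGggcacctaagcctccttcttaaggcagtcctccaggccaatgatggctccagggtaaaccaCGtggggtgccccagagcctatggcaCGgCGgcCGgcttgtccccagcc
Pax2: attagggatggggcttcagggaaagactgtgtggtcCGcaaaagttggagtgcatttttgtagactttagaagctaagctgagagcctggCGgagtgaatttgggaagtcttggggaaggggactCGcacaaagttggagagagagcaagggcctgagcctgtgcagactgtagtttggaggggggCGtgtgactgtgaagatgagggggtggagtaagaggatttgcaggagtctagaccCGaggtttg
Alb: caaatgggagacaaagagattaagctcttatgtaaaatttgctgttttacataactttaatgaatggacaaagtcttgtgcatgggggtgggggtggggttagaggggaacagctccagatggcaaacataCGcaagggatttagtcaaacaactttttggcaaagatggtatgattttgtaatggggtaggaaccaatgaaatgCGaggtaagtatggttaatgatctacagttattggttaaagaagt
Fga: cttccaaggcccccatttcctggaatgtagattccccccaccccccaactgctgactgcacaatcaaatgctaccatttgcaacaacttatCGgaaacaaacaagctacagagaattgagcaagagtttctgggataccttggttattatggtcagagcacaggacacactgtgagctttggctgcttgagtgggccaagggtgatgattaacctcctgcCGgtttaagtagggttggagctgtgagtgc

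The printed stretches hold 29 CG in Sox1, 35 in Hoxa13, 26 in Six2, 10 in Pdx1 and 5 in Pax2, against 2 in Alb and 2 in Fga. CG reads the same on both strands, so each site was counted once. Over windows of 300 bases, which add the first bases of the transcript, 33 of the 49 listed genes in wide domains matched a promoter. Their median was 19 CG, from 7 in Pax2 to 45 in Hoxa13. The 16 matched promoters of hepatocyte and housekeeping genes had a median of 5, from 1 to 12, and all 25748 promoters of the table had a median of 7. Gapdh, with 12 CG, was the only housekeeping gene matched, so the 16 say little of housekeeping promoters. A count of 15 or more was found in 22 of the 33 promoters in wide domains, or 66.7%, in 0 of the 16 and in 35.9% of all promoters. CG-rich promoters were not particular to the wide domains among the developmental genes: 12 of 14 matched promoters of listed regulators outside them, or 85.7%, also reached 15. Relative to base composition, the observed over expected CG ratio had a median of 0.766 in the wide domains, 0.823 for regulators outside them, 0.259 for hepatocyte and housekeeping genes and 0.395 for all promoters.

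Each list of the 600 to 1100 bp libraries held 6295 to 14748 islands over 174 to 340 Mb. Read depth is unknown because the lists hold no read counts. Vehicle replicate 1 covered the most, 340 Mb, while TCPOBOP replicate 3 covered 174 Mb and vehicle replicate 3 covered 196 Mb. The 2 libraries of fragments over 1100 bp covered 654 and 676 Mb.

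The 420 wide domains spanned 55.3 Mb, which is 2.24% of the autosomes and 10.3% of the 536 Mb of autosomal union regions. They were 19.8% of the autosomal union regions of at least 60 kb. The median width was 104 kb, the quartiles were 77.2 and 158 kb, and the widest reached 693 kb. There were 222 domains of at least 100 kb, 62 of at least 200 kb and 22 of at least 300 kb. The width limit fell within a continuous range. The narrowest members were 60 kb wide, on chromosomes 10, 15 and 2, and the widest regions left out that met the cover rule measured 59.6, 59.2 and 58.8 kb. At the cover limit, the members with the lowest cover had 50, 50 and 50.2% in their poorest liver. Regions missing by a little had 49.9, 49.8 and 49.8%, and the first of these was the 139 kb region over En1, a homeobox gene of the midbrain and hindbrain.

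The domains were unevenly placed on the chromosomes. Chromosome 11 held the most, 49 domains over 6.43 Mb, which is 5.28% of its length, and the much shorter chromosome 19 held 25 domains over 5.41% of its length. These correspond to 40.2 and 40.8 domains per 100 Mb. Chromosomes 3 and 10 were the poorest, with 12 and 11 domains, or 7.52 and 8.46 per 100 Mb. The nearest other domain lay at a median distance of 733 kb, but 78 domains had a neighbour within 50 kb and 61 had none within 5 Mb. Several close pairs flanked developmental genes. The HoxC domain on chromosome 15 was separated by 2.40 kb from a domain on its left and the HoxB domain on chromosome 11 by 3.6 kb from one on its right. The smallest gap, 1.20 kb on chromosome 6, separated the domain over Dlx5 and Dlx6, homeobox genes of the jaw and forebrain, from its neighbour.

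The livers differed in how much of the domains they covered, within the limit set by the choice that each reach 50% in every domain. Islands lay over 90.3% of the domains' total length in vehicle replicate 1, 82.3% in vehicle replicate 2 and 70.2% in vehicle replicate 3. With TCPOBOP the values were 78.1, 82.7 and 70.8% in replicates 1, 2 and 3. The livers with the shortest lists, vehicle replicate 3 and TCPOBOP replicate 3, therefore had the lowest cover here too, and they were the poorest liver of 156 and 145 domains. In the other 4 libraries that count was 16 to 62. In the list of TCPOBOP replicate 3 the wide domains made up 22.5% of all covered length, and in that of vehicle replicate 1 they made up 14.7%. The shorter lists thus held the larger share in the domains.

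**Figure D1:**
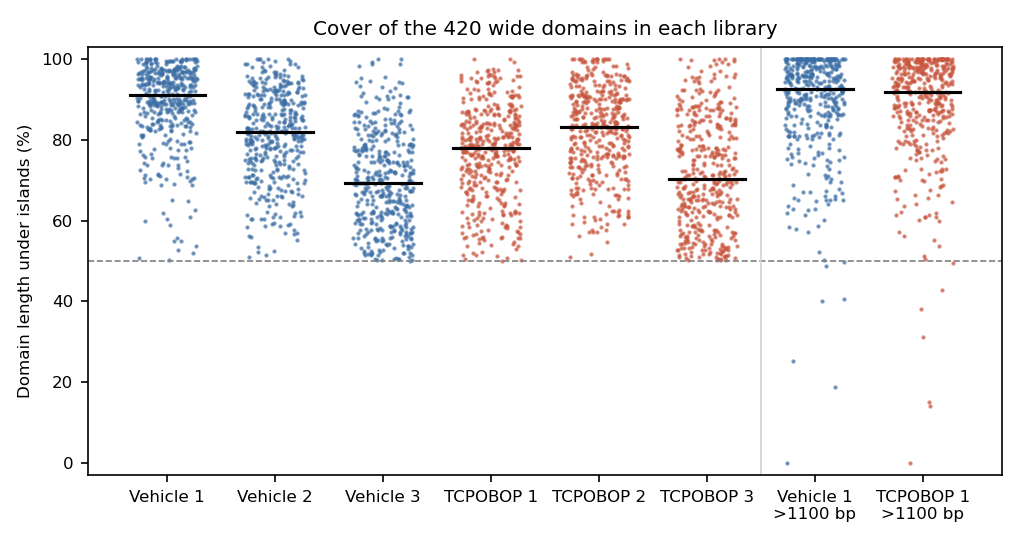
Percent of each of the 420 wide domains under islands (vertical axis) in each of the 8 libraries (horizontal axis), with 1 point per domain and a black bar at the median. The dashed line is the 50% that the choice of domains required in the 6 livers on the left; in the libraries of fragments over 1100 bp on the right, which were not used to choose, medians are 92.6 and 91.8% and 7 domains fall below 50% in each.

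Few of the domains were a single unbroken island. In vehicle replicate 1, 202 of the 420 were touched by 1 island, and in vehicle replicate 3 only 52 were, with up to 13 islands in a domain. There were 18 domains with 1 island in every liver and 143 with several islands in every liver. In 64 domains no liver had an island of 60 kb or more, so that their width was reached only in the union of the lists, while in 57 domains all 6 livers had such an island. No domain was wholly covered in all 6 livers, 8 had at least 90% in the poorest liver, 43 had at least 80%, and 201 had less than 60%.

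The stretches under islands in all 6 livers at once, the shared core, summed to 25.9 Mb, or 46.9% of the domains' length. This was 40.1% of the 64.7 Mb of such core on the autosomes. Per domain the core was 45.5% of the length as a median and ranged from 0 to 98.8%. It was typically broken into 3 stretches, and the longest stretch had a median of 26.4 kb. In 32 domains a single core stretch reached 60 kb. The longest, 141 kb, lay in the HoxA domain, followed by 122 kb in a domain on chromosome 7 (149730801 to 149894800) and 108 kb in the HoxD domain. Compact regions, which met the cover rule below 60 kb, had 50.4% of their length in the core. The wide domains exceeded them in width and not in the share of length under islands in every liver.

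Support was lowest at the edges, which follows from the merging, since each edge is set by the furthest-reaching liver. At 2 kb from a domain's edge a mean of 2.2 of the 6 livers had an island, at 10 kb 4.2 and at 30 kb 5.14. Of the 840 edges, 3 were at the same position in all 6 lists, 54 agreed within 2 kb and 276 within 10 kb, while 24 differed by over 50 kb. The median spread of an edge was 14.8 kb.

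The libraries of fragments over 1100 bp gave a readout that the choice of domains did not use, although they came from the ChIP samples of vehicle replicate 1 and TCPOBOP replicate 1. They covered 89.8 and 89.1% of the domains' length, and 255 and 234 domains were at least 90% covered, 217 of them in both. That share of well covered domains, 60.7 and 55.7%, compares with 46.3 and 45.8% of the compact regions. It was close to the 55.7 and 52.2% of wide regions that not all livers shared, so high cover in these lists was not particular to the shared domains. Cover in these libraries was higher where more livers had an island at the same position. It was 49.0 and 45.2% where 1 liver had one, 81.7 and 79.8% where 3 did and 97.4 and 96.9% where all 6 did. These lists had 1 island in 226 and 217 domains, against 202 and 72 in the 600 to 1100 bp lists of the same ChIP samples. None of their islands wholly contained 2 wide domains. Islands that reached only part of a second domain were not counted.

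**Figure D2:**
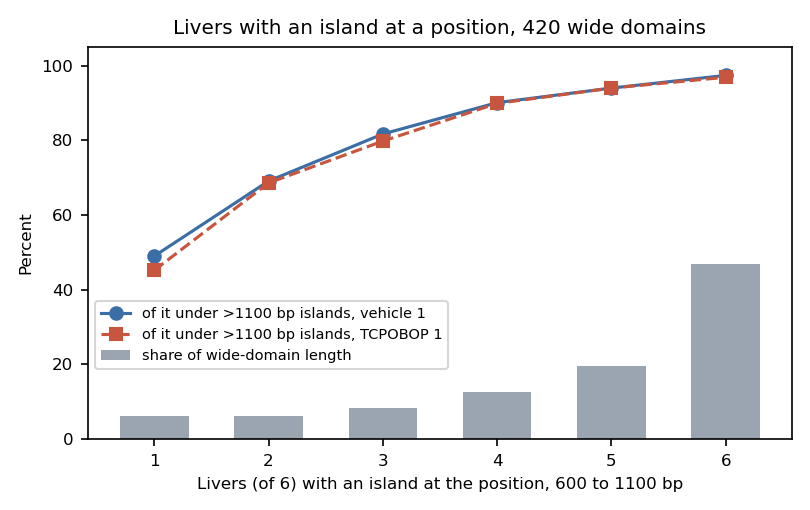
Grey bars give the percent of the wide domains' length (vertical axis) at which 1 to 6 livers (horizontal axis) had an island, from 6.13% with 1 liver to 46.9% with all 6. Lines give the percent of that length under islands of the 2 libraries of fragments over 1100 bp, 1 library per line, which rises from 49.0 and 45.2% to 97.4 and 96.9%.

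A total of 9 domains were under 50% covered in at least 1 of those 2 lists. The HoxB domain lay under no island in either, against 97.8 and 85.6% in the 600 to 1100 bp lists of the same ChIP samples. Rows of these lists may be missing here, so nothing is read from the 0. On chromosome 11, a domain of 134 kb (106494401 to 106628000) had 18.9 and 31.1% in the lists of longer fragments, against 55.1 to 96.7% in the 6 livers. On chromosome 14, a domain of 84.8 kb (70458001 to 70542800) had 40.1 and 42.9%, against 59.4 to 95.3%.

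The deposited score of each island, which can be ranked only within its own list, was taken per kb of island. Islands in wide domains had a median percentile of 65.2 to 82.7 within the 6 lists, below the 75.6 to 86.0 of islands in compact regions in each of them. In the 2 libraries of fragments over 1100 bp the order was the other way, 92.4 and 92.8 for islands in the wide domains against 89.0 and 91.0. The 420 domains were also ranked in each list by their summed score per covered kb. By mean rank over the 6 lists, the densest was a domain of 98.4 kb on chromosome 2 (77691601 to 77790000), which ranked 1 in every one of the 8 lists. Its cover was 83.7, 87.0 and 83.7% in vehicle livers and 89.0, 95.1 and 100% in TCPOBOP livers. It was followed by the domain of 66.0 kb over Pax6, the master regulator of eye development, with a mean rank of 2.67, and the HoxA domain, with 5.5. In the 2 libraries of fragments over 1100 bp the Pax6 domain ranked only 95 and 119, and the HoxA domain 18 and 17. Copy number of the domains was not examined, and whether an input was used is unknown. A high score per kb is therefore not read as more mark.

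Genes were placed on the domains from 81 approximate mm9 positions drawn from general knowledge, since no mm9 annotation was used here. Their order on the chromosomes was checked against the RefSeq gene order of GRCm38.p6, in which all 92 genes were found, and 0 loci were dropped. All 4 Hox clusters and 39 of 63 other developmental regulators lay in wide domains. None of 12 hepatocyte loci and neither of 2 housekeeping loci did. The wide domains make up 2.24% of the autosomes by length. A locus was counted when any part of its approximate interval overlapped a domain, so that share is only a rough background. At so low a share, counts of 0 among 12 and among 2 loci would be usual and set no contrast. The lists were chosen from textbook Polycomb targets with earlier results of these data known. The 38 domains with a listed locus had a median width of 154 kb and a core of 51.2%, and the 382 others had 102 kb and 44.8%. The genes of those 382 domains were not assigned.

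**Figure D3:**
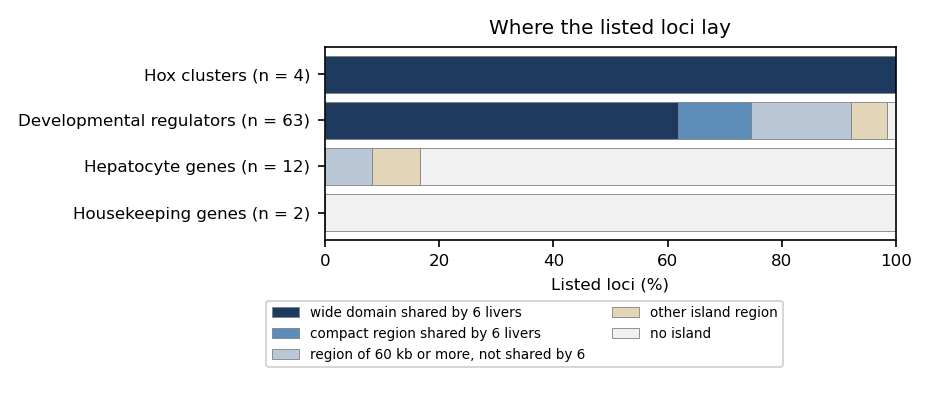
Horizontal bars give the percent of the listed loci of each kind (n at the left) that lay in a wide domain, in a compact shared region, in a region of 60 kb or more not shared by all 6 livers, in another island region, or under no island. All 4 Hox clusters and 39 of 63 regulators are in wide domains, and 10 of 12 hepatocyte loci and both housekeeping loci are under no island.

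The Hox clusters hold homeobox genes that give cells their position along the body axis. The HoxA domain on chromosome 6 (51991601 to 52283600) spanned 292 kb. Vehicle livers had 99.2, 98.1 and 85.9% cover there and TCPOBOP livers 96.7, 98.1 and 92.3%, so the ranges of the groups overlapped. HoxA was 100% covered in both libraries of fragments over 1100 bp and had a core of 79.5%, the most of the 4 clusters. The HoxB domain (chromosome 11, 95972801 to 96380400) was the widest of the 4 at 408 kb. HoxB cover was 97.8, 95.5 and 89.4% with vehicle and 85.6, 95.4 and 66.7% with TCPOBOP, where replicate 3 was the lowest of the 6. The HoxC domain (chromosome 15, 102660401 to 103025200) spanned 365 kb, with 99.1, 93.6 and 92.1% in vehicle livers and 87.2, 86.4 and 91.9% in TCPOBOP livers. The lowest vehicle value lay just above the highest TCPOBOP value there. The HoxD domain on chromosome 2 (74469201 to 74663600) was the narrowest at 194 kb, with 95.3, 90.9 and 80% and then 79.0, 82.1 and 85.0%.

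Regulators of the nervous system included the widest domain of all. Sox1, an early marker of neural progenitors, lay in a domain of 693 kb on chromosome 8 (11937201 to 12630400) that held 20 core stretches, the longest of 106 kb, over 74.1% of its length. Vehicle replicate 1 crossed it with 1 island, and vehicle replicate 3 did so in 12 pieces. En2, a homeobox gene of the midbrain and hindbrain, lay in a domain of 116 kb on chromosome 5 (28433201 to 28549200) that was among the most evenly covered, at 99.7, 97.2 and 94.5% with vehicle and 95.2, 95.9 and 90.3% with TCPOBOP. Its core was 80.7%. Zic1, a zinc finger factor of the cerebellum, had a core of 72.1% in 98.8 kb, and Nr2f1, an orphan nuclear receptor of the cortex, one of 72.6% in 65.6 kb. Lhx2, a LIM homeobox factor of the forebrain, lay in a less shared domain of 151 kb with a core of 25.2%.

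The domains over Pax2 and over Six3 and Six2 were among the 10 widest. Pax2, a paired box factor of kidney and eye, lay in 366 kb on chromosome 19 (44638801 to 45005200), with cover of 95.4, 92.6 and 78.3% with vehicle and 88.3, 93.8 and 78.8% with TCPOBOP. The domains over Tlx1, needed for spleen formation, and Lbx1, a factor of migrating muscle precursors, followed on the same chromosome and were narrower, 66.8 and 118 kb, at 45188801 to 45255600 and 45280401 to 45398400. Six3, of the forebrain and eye, and Six2, of kidney progenitors, shared a domain of 365 kb on chromosome 17 (85943201 to 86308000). The livers' cover was 94.7, 82.1 and 66.2% with vehicle and 69.7, 87.9 and 57.6% with TCPOBOP, and the core was 41.1%. Both libraries of longer fragments covered that domain to 99.2 and 99.0%.

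Several regulators of heart, lung and limb mesenchyme lay in broad domains of which less than 50% was shared core. That was usual, since the median over all 420 domains was 45.5%. Cores were not compared between regulators of different organs, and the domain of the forebrain factor Lhx2 was below 50% too. Foxf1, a forkhead factor of lung and gut mesenchyme, lay in 348 kb on chromosome 8 (123274801 to 123622800) with cover of 97.5, 89.3 and 62.0% with vehicle and 78.4, 75.5 and 51.8% with TCPOBOP. Foxc2, of lymphatic vessels and mesoderm, lay in the adjoining 300 kb (123629601 to 123929200), where values ran from 62.2 to 95.7% and the core was 22.0%. Tbx2 and Tbx4 shared 320 kb on chromosome 11, with a core of 48.4%, and Tbx3 and Tbx5 shared 260 kb on chromosome 5, with a core of 37.4%. These T-box factors act in limb and heart development. The domain over Irx3, a homeobox gene of heart and neural tube, spanned 344 kb on chromosome 8 and ranged from 55.2 to 97.6% among the livers. Gata4, a zinc finger factor of heart and foregut, lay in 288 kb with 52.1 to 83.9% and a core of 32.5%. The domain over Hand2, a heart and limb factor, was narrower, and its core was 56.7% of 74.8 kb.

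Regulators of other organs of the endoderm were also inside wide domains. Pdx1, required for pancreas formation, shared a domain of 202 kb on chromosome 5 (147931601 to 148133600) with Gsx1, a forebrain factor, and Cdx2, which sets intestinal identity. Cover there was 89.1, 93.9 and 87.1% in vehicle livers and 83.8, 85.9 and 80.6% in TCPOBOP livers, and the core was 59.0%. No other protein-coding gene stood between these 3 in the GRCm38.p6 order. Nkx2-1, a homeobox factor of lung and thyroid, lay in 186 kb on chromosome 12 (57474801 to 57660400) with 92.2, 95.0 and 86.2% and then 79.1, 90.5 and 76.1%.

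Not every listed regulator was in a wide domain. There were 8 in compact shared regions, 11 in wide regions that not all livers shared, 4 in other regions and 1, Nr2f2, under no island. Cdkn2a and Cdkn2b, cell cycle inhibitors and well known Polycomb targets, lay in a compact region of 50.8 kb that was 99.2 to 100% covered in all 8 libraries. Zic2 and Sox2, both neural factors, lay in 42.4 and 58.0 kb. The hepatocyte loci were looked up as well. Most of the autosomes lay outside the 536 Mb of union regions, so a locus under no island cannot check the tissue label. Alb, the Apoa1 cluster, Cyp3a11, Hnf4a, Apob, Pck1, G6pc, Tat, Cps1 and the Ahsg and Fetub locus lay under no island of any of the 6 livers. The fibrinogen cluster met a single island of 6.8 kb in vehicle replicate 3, and Foxa2, a forkhead factor of the liver, lay in a region of 100 kb that was 48.4 to 92.0% covered and was not shared by all livers.

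**Figure D4:**
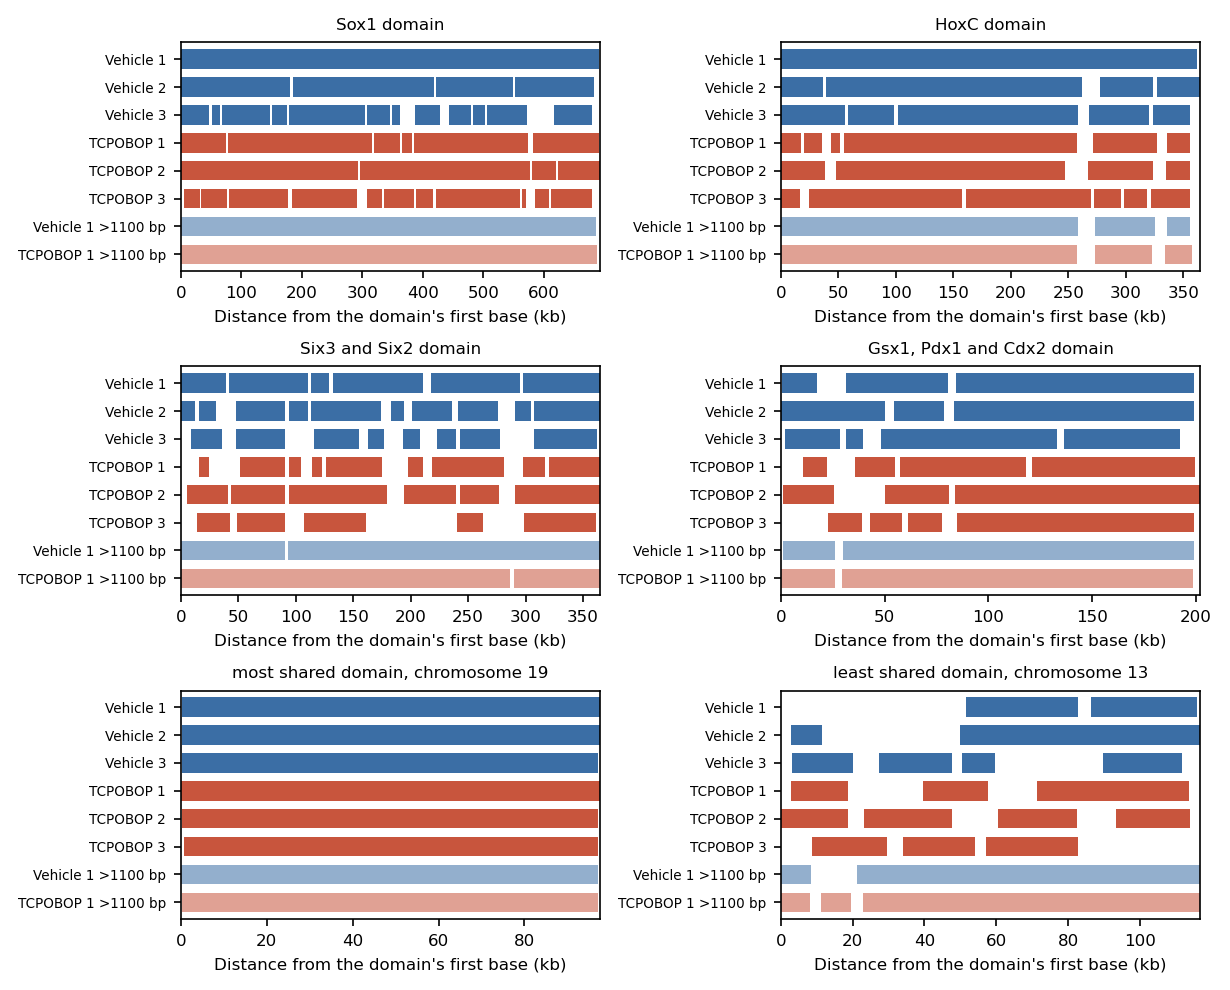
Maps of 6 wide domains, with distance from the domain's first base in kb on the horizontal axis and 1 row per library, blue for vehicle and red for TCPOBOP, paler for the fragments over 1100 bp. Filled blocks are islands: the Sox1 domain is 1 island in vehicle replicate 1 and 12 in vehicle replicate 3, the most shared domain is 1 island in all 8 rows, and the least shared has no position under islands in all 6 livers.

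The domains ran from nearly identical in every liver to having no position shared by all 6. The most shared was a domain of 97.6 kb on chromosome 19 (44299201 to 44396800), left of the Pax2 domain, with cover of 99.6, 99.6 and 99.2% with vehicle and 100, 99.2 and 98.8% with TCPOBOP. It was 1 island in each liver, its edges moved by 0.8 and 0.4 kb, and its core was 98.8%. Next came domains on chromosome 7 (96643601 to 96716800), chromosome 6 (53359601 to 53430800), chromosome 11 (62715201 to 62782000) and chromosome 5 (102107201 to 102266000), with cores of 96.7, 92.1, 86.8 and 85.9%. The least shared was a domain of 117 kb on chromosome 13 (42678801 to 42795600), where the livers had 52.1 to 73.6% cover but no base in common, while the libraries of longer fragments covered it to 89.0 and 94.5%. Others with little core were on chromosome 13 (41164401 to 41260000), chromosome 12 (86114801 to 86261200), chromosome 19 (10982801 to 11086400) and chromosome 1 (186258401 to 186420800), with 2.93, 7.38, 13.1 and 14.5%. Of the 10 widest domains, 5 held a listed locus. The others were on chromosome 4 (139614001 to 140078800, 465 kb), chromosome 13 (45240401 to 45644000, 404 kb), chromosome 18 (384 kb), chromosome 1 (120873201 to 121247600, 374 kb) and chromosome 11 (101629601 to 102002400, 373 kb), with cores of 34.9, 66.7, 45.0, 50.1 and 49.7%.

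The last comparison asked whether cover of the wide domains differed between TCPOBOP and vehicle livers 3 h after injection. No domain passed the test. With limma on the covered fraction of 8659 union regions, 0 of the 420 domains and 0% of all regions tested had a Benjamini-Hochberg adjusted p under 0.05. At an unadjusted p under 0.05, 2 domains were lower with TCPOBOP, 0.476%, against 2.24% of all regions tested, and 0 were higher, against 0.358%. That direction depended on scaling and on 1 library. With each library centred on its mean, 6 domains were higher and 0 lower, among 383 of the 8659 regions. Without vehicle replicate 1, 4 were higher and 0 lower, among 449 of the regions. Since each domain had at least 50% cover in every liver by choice, its groups could differ by no more than 50 percentage points. The standard error of a domain's difference had a median of 12.3 points and ranged from 4.46 to 22.8. Even the largest difference, -25.7 points with a standard error of 10.2, was not called. With 3 livers a group, differences over a large part of the 50-point range could therefore go uncalled. The absence of calls is not read as unchanged cover.

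Islands covered 44.8 ± 5.61 Mb of the domains in vehicle livers and 42.7 ± 3.33 Mb in TCPOBOP livers (SD, n = 3 each), a difference of -2.07 Mb that is smaller than either SD. As a share of each list's own cover the order was the other way, 16.8 ± 2.65% for vehicle livers against 18.8 ± 3.29% for TCPOBOP livers. Single domains differed by a median of -3.35 points, from -25.7 to 21.5, and 286 of 420 were lower with TCPOBOP. That share of 68.1% is near the 65.2% of all regions tested, whose median difference was -7.53 points. Most of those regions did not meet the cover rule. Among the compact regions, which did, 53.2% were lower, with a median difference of -0.758 points. The sign of the members' median depended on 1 library and on scaling. It was 1.14 points without vehicle replicate 1, the library with the longest list, -0.299 without TCPOBOP replicate 3, -8.32 without vehicle replicate 3, and 5.72 after each library was centred on its mean over the regions tested.

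The cover of the groups did not overlap, with vehicle higher, in 19 domains, 4.52%, against 4.33% of all regions tested. It did not overlap with TCPOBOP higher in 5 domains, 1.19%, against 1.48%. Both shares are near the background and say nothing particular of the wide domains. The smallest limma p belonged to a domain of 77.2 kb on chromosome 17 (86311601 to 86388800), which begins 3.6 kb beyond the Six3 and Six2 domain. Vehicle livers had 100, 84.5 and 100% of it covered and TCPOBOP livers 65.8, 79.3 and 62.2%. All vehicle livers were above all TCPOBOP livers, with means of 94.8 ± 8.97% and 69.1 ± 9.01% (SD, n = 3 each). The difference of -25.7 points had a limma standard error of 10.2 and an adjusted p of 1, and was -16.7 points after centring. In the libraries of longer fragments this domain was 76.2% covered with vehicle and 64.2% with TCPOBOP, 1 library each from the ChIP samples of replicate 1.

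The other 4 domains with the smallest p were also lower with TCPOBOP, with adjusted p = 1 by limma. The domain on chromosome 1 (158339201 to 158452400) had 100, 91.2 and 86.6% against 81.6, 80.6 and 64.7%, and that on chromosome 3 (87982801 to 88072800) had 96.4, 98.7 and 83.6% against 75.6, 73.3 and 80.9%. Neither pair of groups overlapped. On chromosome 9 (96011601 to 96095200) the values were 96.7, 99.5 and 86.1% against 87.6, 87.6 and 52.2%. That difference of -18.3 points rested largely on TCPOBOP replicate 3 and was -6.54 without it. On chromosome 10 (79903201 to 80006800) they were 94.6, 92.3 and 81.9% against 90.7, 57.1 and 65.3%, a difference of -18.5 points, or -11.6 without TCPOBOP replicate 2 and -28.4 without replicate 1. Groups overlapped in both. With each library centred on its mean the differences were smaller, -7.89 points on chromosome 1, -7.22 on chromosome 3, -9.27 on chromosome 9 and -9.46 on chromosome 10. Among the domains over listed genes, HoxC and the domain of Gsx1, Pdx1 and Cdx2 had all vehicle livers above all TCPOBOP livers. HoxC averaged 95.0 ± 3.69% in vehicle livers against 88.5 ± 2.97% in TCPOBOP livers (SD, n = 3 each). Both domains had a limma adjusted p of 1. Their differences, -6.47 and -6.60 points, were smaller than the shift that centring gave the 4 domains above. The order of their groups therefore depended on scaling. The dense domain on chromosome 2 had the opposite order, with all TCPOBOP livers above all vehicle livers, and a limma adjusted p of 1. These 3 domains are named because their groups did not overlap, so the order of their livers is a description.

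**Figure D5:**
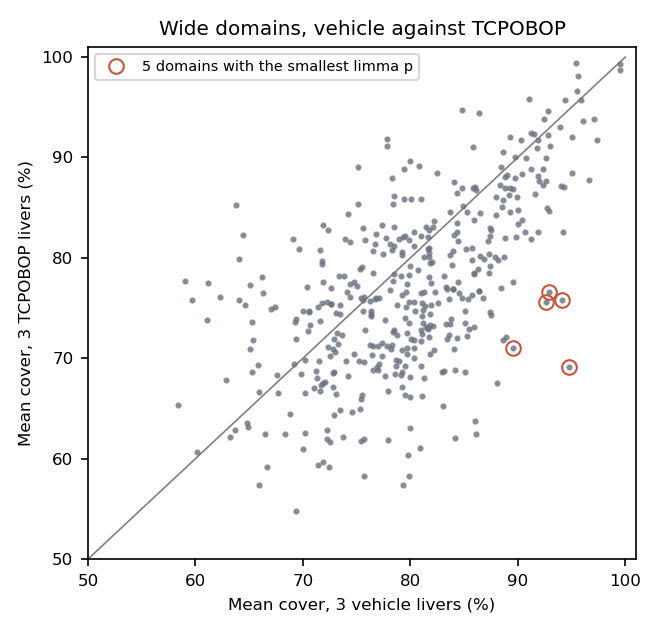
Mean cover of each wide domain in the 3 TCPOBOP livers (vertical axis, percent) against that in the 3 vehicle livers (horizontal axis, percent), with 1 point per domain and a line of equality. Of the 420 points 286 lie below the line, and the 5 circled domains with the smallest limma p lie below it by 16.3 to 25.7 points; the adjusted p is 1 for each.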

How the data were processed

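Per the labels' protocols, chromatin of frozen livers was sonicated and immunoprecipitated with the H3K27me3 antibody ab6002. The tools Bowtie2 2.3.2 and SICER 1.1 and the build mm9 are named in the submitters' processing notes, with no roles. The deposited files are 1 island list per library, with a score per island that the authors made and that is comparable only within a list. Window and gap in the file names are 400 and 2400 bp. No source used here says whether an input was used. Coordinates are mm9, 1-based.

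Union regions merge the islands of the 6 lists of the 600 to 1100 bp fragments, and cover is the percent of a region under islands. Cover of the 8659 regions at 50% or more in at least 2 lists was compared with limma 3.58.1 (R 4.3.3, variance trend, Benjamini-Hochberg threshold 0.05). The fit was also run on simulated data in which wide domains were lowered to no cover or by 50 percentage points. Such falls are at or beyond what the choice of domains allows. That run therefore says nothing of smaller differences. An exact permutation test of the named domains was also run. With 3 livers a group its p cannot go below 0.1, and its values are not given. Python 3.11.15 with pandas 2.3.3, numpy 2.4.6 and matplotlib 3.10.9 did the rest. Alternatives were other cover, width, merging and score limits, equal covered length per list, centring, a replicate block and leaving out each liver.

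The members and lists were chosen with earlier results of these data known. Named were the widest, most and least shared, densest and smallest-p domains, those at the limits, and those with listed loci. Domains below 50% in the longer-fragment lists, the longest core stretches and the closest neighbours were named after their values were seen. The values of 1 listed locus are not reported here.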

Additional observations from a re-analysis of the deposited data

How the results depend on the processing

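The number of wide domains depended on the rule. It was 43 with at least 80% cover in each list, 222 from 100 kb, 574 from 40 kb, 362 with islands up to 5 kb apart merged, 268 with islands scoring below 84.6 left out and 349 with every list reduced by score to 174 Mb. Leaving out 1 liver gave 441 to 624 domains, the most without TCPOBOP replicate 3, and of the 420 domains 399 to 414 were overlapped. The shared core was 41.3 to 47.0% of the length under other limits and 47.4 to 54.0% with 1 liver left out. The TCPOBOP minus vehicle difference in covered length was -1.43 Mb with the score minimum and -1.26 Mb at equal length. It was -5.04 to 0.532 Mb with 1 liver left out, positive without vehicle replicate 1, and 1.92 percentage points as a share of each list's own cover. The cause was not tested. The lists of fragments over 1100 bp, reduced to the length of the matching 600 to 1100 bp list, covered 83.8 and 78.0% of the domains. Regulators in wide domains were 26 with the score minimum and 33 at equal length, against 39. Within 50 kb of a wide domain there was 1 hepatocyte locus, Hnf4a, against 0 inside. In limma 0 domains were called in every alternative, with a lowest adjusted p from 0.642 on an arcsine scale to 1.

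With the replicate number as a block 0 domains were called, 3 had an unadjusted p under 0.05, and the lowest adjusted p was 0.805. The labels pair no animals across groups, and deviations of same-numbered livers correlated by -0.0539, -0.0163 and 0.039. Depth is unknown, so list length and amount of mark cannot be told apart. Edges follow the furthest-reaching liver, and gene positions are approximate.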
